A study of Mus musculus with 6 samples.

Results

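Regulatory T cells (Tregs) of mouse kidney allografts were picked by their Foxp3 transcripts. A cell barcode with at least 500 unique molecular identifiers (UMIs, each marking 1 captured transcript), at least 250 genes, and at most 50% of UMIs from mitochondrial genes was kept as a cell. A kept cell was a member if it held at least 1 UMI of Foxp3, at least 1 UMI of the T cell receptor genes Cd3d, Cd3e, and Cd3g together, and none of the CD8 genes Cd8a and Cd8b1 or of the macrophage gene C1qb. This gave 534 Foxp3-positive T cells among 36517 kept cells and 12996 Cd3-positive cells of 4 grafts, and none in the naive kidneys, of 49797 kept cells in all 6 kidneys. Because these 7 genes chose the cells, their values in the members and in the populations compared with them are given as description. They were not tested between populations or within members. Between kidneys, the number and share of members and the Foxp3 level of Cd3-positive cells were tested.

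Tregs are CD4 T cells whose identity depends on the transcription factor FOXP3. They restrain other T cells by several routes, among them uptake of interleukin 2 through its high-affinity receptor, removal of costimulatory ligands by CTLA-4, and release of inhibitory cytokines. In kidney transplants they are studied as a brake on rejection and as a component of induced tolerance.

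The study profiled single cells of 2 kidneys in each of 3 groups, with 1 droplet library per whole dissociated kidney and no cell sorting. In the rejecting group, BALB/c kidneys were placed into bilaterally nephrectomized, fully MHC-mismatched male B6 recipients with no further treatment. In the tolerized group, recipients of the same kind of graft were also infused with BALB/c splenocytes fixed with ethylenecarbodiimide (ECDI-SP). Grafts of both groups, from mice of 6 to 7 weeks by their labels, were retrieved on day 15, whereas the naive group consisted of untransplanted kidneys of male B6 mice of 10 to 12 weeks. Grafts and naive kidneys thus differed in transplantation, strain, and age, which cannot be told apart. Each graft holds donor kidney cells together with infiltrating cells of the recipient, and the matrices do not assign cells to either mouse. The libraries held 56837038 and 48111410 UMIs in the rejecting group, 96803926 and 94316013 in the tolerized group, and 41562534 and 34874702 in the naive group.

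The label of the cells was checked with Treg genes that the choice had not used. Ikzf2, which encodes the transcription factor Helios, had a UMI in 85.9% and 86.7% of members in the rejecting grafts and in 94.3% and 87.0% in the tolerized grafts. Ctla4 had one in 75.6%, 83.3%, 81.1%, and 79.6% of members in the same order of kidneys, and Tnfrsf4, which encodes the costimulatory receptor OX40, in 82.1%, 85.8%, 94.7%, and 86.1%. All of these 3 genes were found together in 62.8%, 66.7%, 74.6%, and 65.7% of members, and none of the 3 in only 3, 3, 1, and 2 cells. In these measures the members bore the Treg label in every graft.

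Because deeper cells show more genes, shares were also computed for cells thinned to 1000 UMIs each. On that scale Ikzf2 was found in 62.4%, 70.0%, 72.1%, and 60.4% of members, compared with 6.87%, 23.1%, 18.4%, and 18.5% of Foxp3-negative Cd3-positive cells without Cd8 or C1qb UMIs (called Foxp3-negative below). In Cd8-positive cells that held Cd3 and neither Foxp3 nor C1qb, the share was 9.48%, 10.5%, 7.48%, and 6.88%. In tubular cells without Cd3, which are not T cells, the share was 0.962%, 0.846%, 0.633%, and 1.20%. The members lay above the other populations in each graft and for each of the 8 genes plotted.

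**Figure D1:**
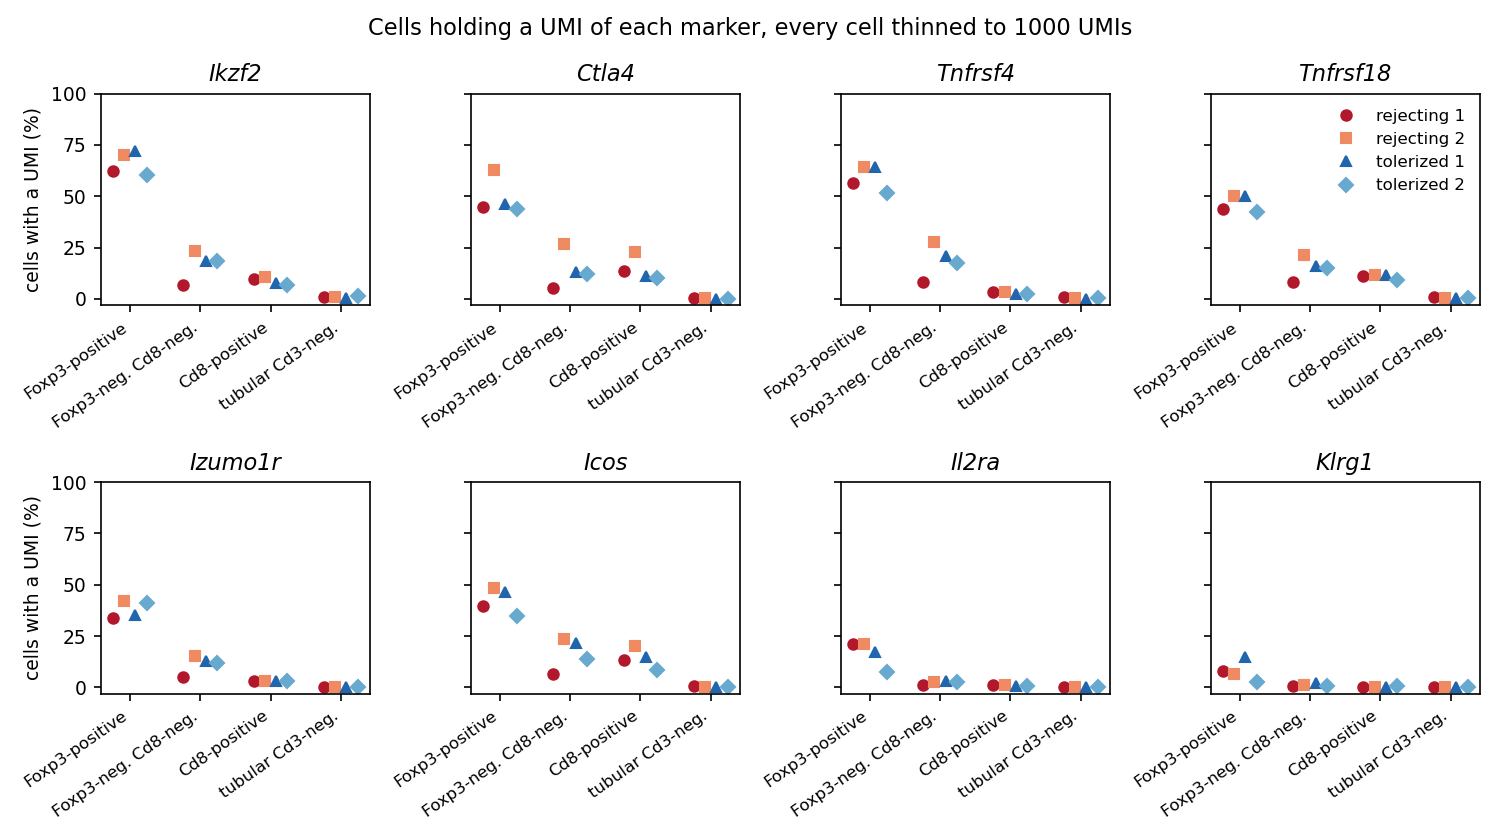
Each point is 1 graft and gives the percentage of cells with at least 1 UMI of the named gene (y axis) in 4 populations (x axis), as the expected value after thinning each cell to 1000 UMIs. Foxp3-positive T cells lie highest for all 8 genes, for example between 60.4% and 72.1% for Ikzf2, while Il2ra ranges from 7.51% to 21.3% and Klrg1 from 2.62% to 14.7% among the 4 grafts.

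Members varied in how much Foxp3 they held. A single Foxp3 UMI was found in 39 of 78 and 69 of 120 members of the rejecting grafts and in 81 of 228 and 56 of 108 members of the tolerized grafts, and the highest count in a cell was 5, 5, 11, and 6. Members with 1 Foxp3 UMI, just inside the threshold, held all 3 of Ikzf2, Ctla4, and Tnfrsf4 in 59.0%, 62.3%, 64.2%, and 62.5% of cells. Just outside it lay 50, 133, 73, and 83 Foxp3-negative cells that held all 3 genes. In those cells Il2ra, which encodes the alpha chain of the interleukin 2 receptor (CD25), reached 59.8, 97.9, 75.0, and 92.2 CPM (counts scaled to a common library total), compared with 200, 255, 175, and 86.3 CPM in members. Cells with Treg genes and no Foxp3 UMI therefore exist on the other side of the rule in each graft, and the numbers below count cells with a captured Foxp3 transcript.

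The CD4 transcript was sparse, as is common in droplet data, with a UMI in 47.4%, 30.8%, 39.5%, and 35.2% of members. It was found in 2.06%, 1.53%, 1.98%, and 2.04% of Cd8-positive cells. Cd4 thus separated members from Cd8-positive cells in all 4 grafts, although most members had no Cd4 UMI.

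Number and share in the grafts came next, since a comparison of tolerized with rejecting grafts asks whether tolerance went with more Foxp3-positive T cells. The number of members was 78 and 120 in the rejecting grafts and 228 and 108 in the tolerized grafts. The groups overlapped, with a mean of 99.0 ± 29.7 (SD, n = 2) in the rejecting group and 168 ± 84.9 (SD, n = 2) in the tolerized group, and the exact permutation test over kidneys gave p = 0.6667 (two-sided). Without replicate 1 of the tolerized group, the difference of 69.0 cells shrank to 9 cells. A larger number of Foxp3-positive T cells in tolerized grafts was thus not shown.

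As a share of Cd3-positive cells, Foxp3-positive T cells did not overlap between the groups. They made up 1.22% (95% exact binomial interval, 0.967 to 1.52) of 6382 and 3.80% (3.16 to 4.53) of 3155 Cd3-positive cells in the rejecting grafts. They made up 10.3% (9.04 to 11.6) of 2219 and 8.71% (7.20 to 10.4) of 1240 Cd3-positive cells in the tolerized grafts. The mean share was 2.51% ± 1.83 (SD, n = 2) in the rejecting group and 9.49% ± 1.11 (SD, n = 2) in the tolerized group, a difference of 6.98 percentage points and a 3.78-fold ratio of the means. The ratio was 2.50-fold without rejecting replicate 1, 7.77-fold without rejecting replicate 2, and 2.49-fold after thinning to 1000 UMIs. The exact permutation p was 0.3333, the smallest that 2 against 2 kidneys can give, and 0.6667 after Benjamini-Hochberg adjustment over the 3 such tests made here. Intervals cover counting error only.

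The number of Cd3-positive cells itself differed between the groups without overlap, at 6382 and 3155 cells in rejecting grafts against 2219 and 1240 in tolerized grafts. Per 100 Cd8-positive cells there were 5.03 and 7.35 Foxp3-positive T cells in rejecting grafts and 21.6 and 24.4 in tolerized grafts. Among Cd3-positive cells without Cd8 or C1qb UMIs the share was 4.55% and 13.5% in rejecting grafts and 31.1% and 16.3% in tolerized grafts. Of all kept cells they were 0.664% and 1.49% in rejecting grafts and 2.32% and 1.57% in tolerized grafts, so that replicate 2 of each group lay close together on this scale. A whole-kidney library does not tell more Foxp3-positive T cells from fewer other cells.

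The libraries also differed in depth and in C1qb UMIs, and the part of either in the difference of shares was tested only as follows. Cd3-positive cells had a median of 2131.5 and 2958 UMIs in rejecting grafts and 5118 and 5413.5 in tolerized grafts, whereas members had a median of 3237, 2259.5, 3806, and 4211.5. After thinning to 1000 UMIs, with 2715, 575, 419, and 522 shallower cells left out, the share was 1.69% and 2.55% in rejecting grafts and 6.04% and 4.53% in tolerized grafts. C1qb UMIs were present in 48.5% and 19.3% of Cd3-positive cells in rejecting grafts and in 17.4% and 9.52% in tolerized grafts, and they removed 61, 24, 41, and 13 cells with Foxp3 and Cd3 UMIs. With C1qb UMIs allowed, the difference of the mean shares was 7.57 percentage points. The groups did not overlap under any of these settings.

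**Figure D2:**
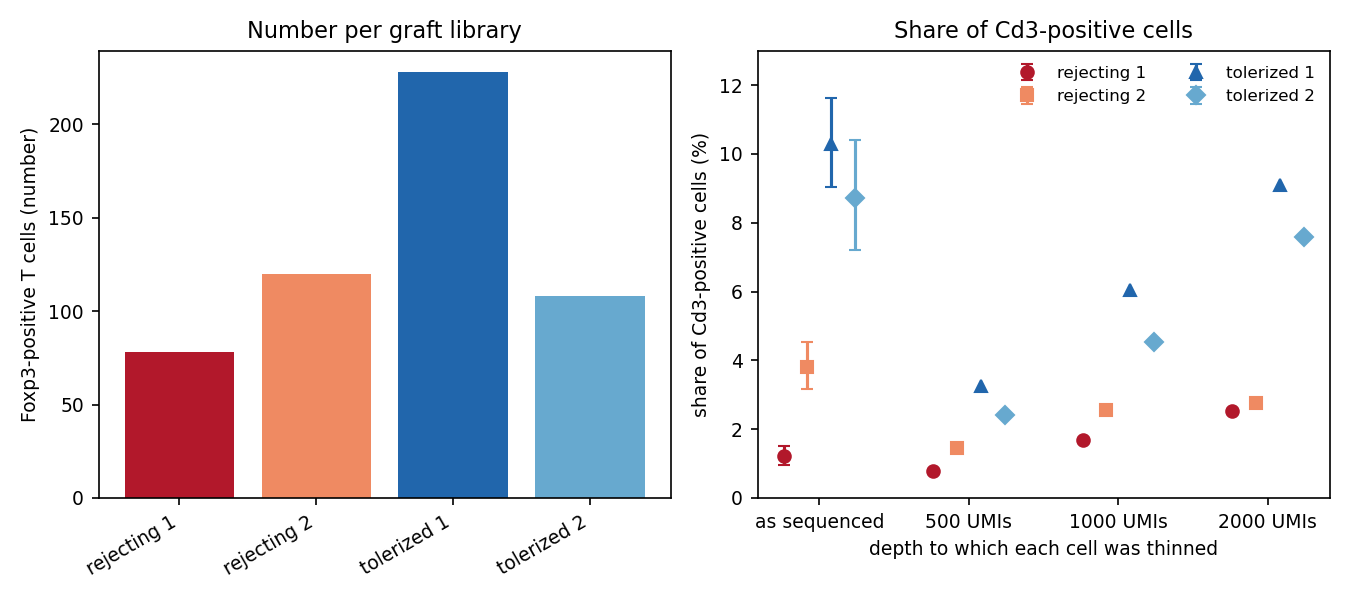
Left, bars give the number of Foxp3-positive T cells in each graft library. Right, points give their share of Cd3-positive cells (percent) as sequenced, with 95% exact binomial intervals as error bars, and after thinning each cell to 500, 1000, or 2000 UMIs. The bars of the groups overlap (78 and 120 against 228 and 108), while both tolerized grafts lie above both rejecting grafts at each depth.

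Tubular cells without Cd3, which should lack Foxp3, gave a background of stray Foxp3 UMIs outside T cells. A Foxp3 UMI was found in 0.344% and 0.302% of them in rejecting grafts (median depth, 3687 and 4912.5 UMIs) and in 0.254% and 0.0453% in tolerized grafts (7695 and 9150 UMIs). The shares of members among Cd3-positive cells were higher than these in all 4 grafts. A background within T cells was not estimated. Cd3-positive cells with both Foxp3 and Cd8 UMIs numbered 41 and 24 in rejecting grafts and 52 and 18 in tolerized grafts. Members numbered 78, 120, 228, and 108 in the same order. Whether the Foxp3 UMIs of the cells with Cd8 were stray was not tested. In the naive kidneys none of 42 and 61 Cd3-positive cells was a member, and a count of 0, taken as a limit of 3 counts, allows a share of up to 7.14% and 4.92% (upper ends of the exact intervals, 8.41% and 5.87%). No comparison of the grafts with naive kidneys was made.

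A level that does not rest on detection of Foxp3 in single cells was Foxp3 CPM summed over Cd3-positive cells without C1qb UMIs, compared between the groups of kidneys and not between cells. It was 17.4 and 24.7 CPM in the rejecting grafts and 52.9 and 24.5 CPM in the tolerized grafts. The means were 21 ± 5.17 and 38.7 ± 20.1 CPM (SD, n = 2 each), the groups overlapped, and the exact permutation p was 0.6667. Only replicate 1 of the tolerized group stood above the other kidneys, and without it the difference of 17.6 CPM fell to 3.46 CPM. Per 100 Cd3 UMIs of the same cells there were 0.913 and 0.674 Foxp3 UMIs in rejecting grafts and 1.89 and 1.20 in tolerized grafts. Foxp3 is a gene of the rule. Members held 147 of 190 and 204 of 240 of the Foxp3 UMIs behind this level in rejecting grafts. In tolerized grafts they held 560 of 655 and 200 of 227. The level is therefore not separate from the share, and no conclusion is drawn from its test.

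Other cell types were looked for in the members before genes were compared. B cell genes (6 listed) summed to 883, 448, 588, and 526 CPM, of which Ighm was the most abundant in each graft, and the B cell marker Ms4a1 was at 0 in all 4. Macrophage and monocyte genes (10 listed) summed to 907, 288, 1141, and 71.1 CPM, led by Lyz2. Kidney genes (12 listed) summed to 2433, 4793, 6584, and 6847 CPM, led by Kap, which encodes an androgen-regulated protein of the proximal tubule. Natural killer (NK) and innate-like genes summed to 6.67, 6.97, 14.4, and 3.39 CPM, with Ncr1 and Klrb1c at 0 in all grafts, and dendritic cell genes to 0, 34.8, 3.20, and 0 CPM. The kidney list was thus higher in the members of both tolerized grafts than in those of both rejecting grafts. Scores of simulated doublets called 4, 4, 22, and 3 members as doublets. No barcode was a member in more than 1 library. Among all deposited barcodes, kept or not, libraries shared up to 35 among grafts and 111 between the naive kidneys.

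To ask what sets Foxp3-positive T cells apart from other T cells of the same grafts, UMI counts were summed per kidney and population and compared within kidneys. Against the 3468 Foxp3-negative cells, the members carried more of the transcripts of Treg surface receptors and of their transcription factors, and less of most cytotoxic genes, several helper genes, and the survival gene Bcl2. By edgeR's quasi-likelihood test with Benjamini-Hochberg adjustment, 1985 of 11886 genes tested (16.7%) were higher and 2716 (22.9%) lower in members at an adjusted p under 0.05. These shares are the background for the lists below, and without replicate 1 of the tolerized group the calls in both directions together fell from 4701 to 2740. Fold changes are given on the log2 scale with their standard errors (SE), and levels as CPM after normalization of library composition.

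The Foxp3-negative cells held more kidney RNA. Their kidney genes summed to 23155, 13184, 38730, and 22148 CPM, against 2433, 4793, 6584, and 6847 CPM in members. Their median mitochondrial share was 15.9%, 6.59%, 6.32%, and 8.64%, against 4.41%, 4.80%, 4.40%, and 6.05% in members, and all 13 of 13 general T cell genes (Cd2, Lck, Trac, and others) tested higher in members. Of the lists of other immune cells, NK and innate-like genes (38.3, 85.3, 44.7, and 71.6 CPM in Foxp3-negative cells) and dendritic cell genes (33.6, 40.2, 15, and 14.5 CPM) were also above the members in each graft, whereas the other two lists were not. B cell genes summed to 336, 774, 182, and 425 CPM in Foxp3-negative cells, below the members in 3 of 4 grafts, and macrophage genes to 2451, 1797, 999, and 367 CPM, below the members in tolerized replicate 1. The comparison was repeated with at least 2 Cd3 UMIs in every cell of both populations, a setting chosen after the data were seen. It called 154 of 10080 genes (1.53%) higher and 148 (1.47%) lower, of which 151 and 115 were also called with 1 Cd3 UMI. There 1 of the 13 T cell genes (Cd2) and none of 11 kidney genes remained called. Each list is given with both comparisons, and calls made only in the first cannot be told apart from a difference in T cell content.

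The interleukin 2 receptor alpha chain was among the genes most raised. Il2ra stood at 188 CPM in members and 6.81 CPM in Foxp3-negative cells of rejecting replicate 1, at 223 and 22.6 CPM in rejecting replicate 2, at 166 and 17.6 CPM in tolerized replicate 1, and at 90.6 and 15 CPM in tolerized replicate 2. Members were above in 4 of 4 kidneys, with a log2 fold change of 3.44 (SE 0.25, edgeR adjusted p = 5.29e-06). With at least 2 Cd3 UMIs the value was 2.21 (adjusted p = 0.000513). Il2ra lies on chromosome 2 at 11642807 to 11693193, plus strand, of GRCm38.

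Promoter windows of both genes are shown because Foxp3 chose the cells and Il2ra was the most raised gene of the Treg list. Each runs from 250 bases before to 50 after a transcription start in RefSeq (GRCm38.p6), and 4 of the 5 genes Foxp3, Il2ra, Ctla4, Tnfrsf4, and Ikzf2 were matched. They were searched on both strands for the forkhead letters TGTTTAC (in 3.65% of 32851 such windows), the NF-kB letters GGGNNTTCC (5.82%), and the STAT letters TTCNNNGAA (8.30%). Capitals mark the match, an NF-kB match in Il2ra and a STAT match at the downstream of the 2 listed Foxp3 starts. No match was found at the upstream Foxp3 start or in the windows of Ctla4 and Tnfrsf4. A match of letters is not a bound site.
Il2ra, chr2:11642542-11642841, plus strand: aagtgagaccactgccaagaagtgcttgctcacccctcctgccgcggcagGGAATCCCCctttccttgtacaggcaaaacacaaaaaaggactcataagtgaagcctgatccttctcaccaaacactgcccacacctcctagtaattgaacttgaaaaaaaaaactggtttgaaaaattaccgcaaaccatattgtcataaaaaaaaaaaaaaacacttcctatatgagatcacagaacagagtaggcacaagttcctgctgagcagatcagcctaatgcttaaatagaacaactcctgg
Foxp3, chrX:7580233-7580532, plus strand: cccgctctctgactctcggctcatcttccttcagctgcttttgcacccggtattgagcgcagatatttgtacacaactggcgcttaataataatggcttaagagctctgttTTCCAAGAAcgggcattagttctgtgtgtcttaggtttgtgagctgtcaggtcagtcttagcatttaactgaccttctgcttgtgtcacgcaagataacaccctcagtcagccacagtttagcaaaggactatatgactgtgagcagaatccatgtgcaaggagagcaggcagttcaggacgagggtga

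Of the 24 genes on the Treg core list, 23 were tested, 20 were higher in members and 1 was lower, with a median log2 fold change of 2.09 against -0.07 over all genes tested. With at least 2 Cd3 UMIs, 14 of 22 were higher and 1 lower, with a median of 1.09. With at least 1 Cd4 UMI in every cell, where 84 of 7462 genes (1.13%) were higher and 110 (1.47%) lower, 11 of 21 were higher and none was lower, with a median of 0.96. Several encode receptors of the tumor necrosis factor (TNF) family. Tnfrsf18, which encodes GITR, was at 530, 536, 611, and 563 CPM in members (kidneys in the order above) and at 68.3, 185, 116, and 110 CPM in Foxp3-negative cells. Its levels did not overlap between the populations, and its log2 fold change was 2.29 (SE 0.19, edgeR adjusted p = 5.71e-06), or 1.07 with at least 2 Cd3 UMIs (adjusted p = 0.0015). Tnfrsf4 was higher by 2.40 (SE 0.25) and Tnfrsf9, which encodes 4-1BB, by 2.76 (SE 0.25), and both kept the call with at least 2 Cd3 UMIs at 1.12 and 1.56.

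Transcription factors of the list rose too. Ikzf2 was at 1042, 1175, 1280.3, and 1127 CPM in members and at 76.0, 283, 180, and 174 CPM in Foxp3-negative cells, with the members above in each kidney. The log2 fold change was 2.81 (SE 0.23, edgeR adjusted p = 5.71e-06), and 1.62 with at least 2 Cd3 UMIs (adjusted p = 0.00108). Ikzf4, which encodes Eos, a partner of FOXP3 in gene repression, was higher by 2.95 (SE 0.23) and 1.97. Plagl1, a zinc-finger factor, was the only core gene that fell, at 3.14, 0, 2.27, and 0 CPM in members and 4.86, 11.4, 4.64, and 5.35 CPM in Foxp3-negative cells (log2 fold change -1.99, SE 0.68, edgeR adjusted p = 0.0333).

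Surface and signaling genes of the core list completed the picture. Lrrc32, which encodes GARP, the protein that holds latent TGF-beta on the Treg surface, was at 87.9, 64.9, 66.5, and 32.0 CPM in members and at 7.30, 13.8, 8.55, and 5.57 CPM in Foxp3-negative cells. Its log2 fold change of 2.84 (SE 0.25) was 2.30 with at least 2 Cd3 UMIs. Ctla4 was higher by 2.70 (SE 0.28) and Izumo1r, which encodes folate receptor 4, by 2.48 (SE 0.19), and with at least 2 Cd3 UMIs by 1.47 and 1.22, both called. Icos, Il2rb, Capg, Tnfrsf1b, Ltb, Dusp4, Socs2, Swap70, Gpr83, Tigit, and Nrp1 were also called, between 0.51 for Nrp1 and 2.99 for Gpr83. Of these, Icos, Ltb, Dusp4, Tigit, and Nrp1 were not called with at least 2 Cd3 UMIs, and Gpr83 was not tested there. Itgb8 (0.70, edgeR adjusted p = 0.0577) and Cd83 (-0.37, adjusted p = 0.372) did not pass.

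**Figure D3:**
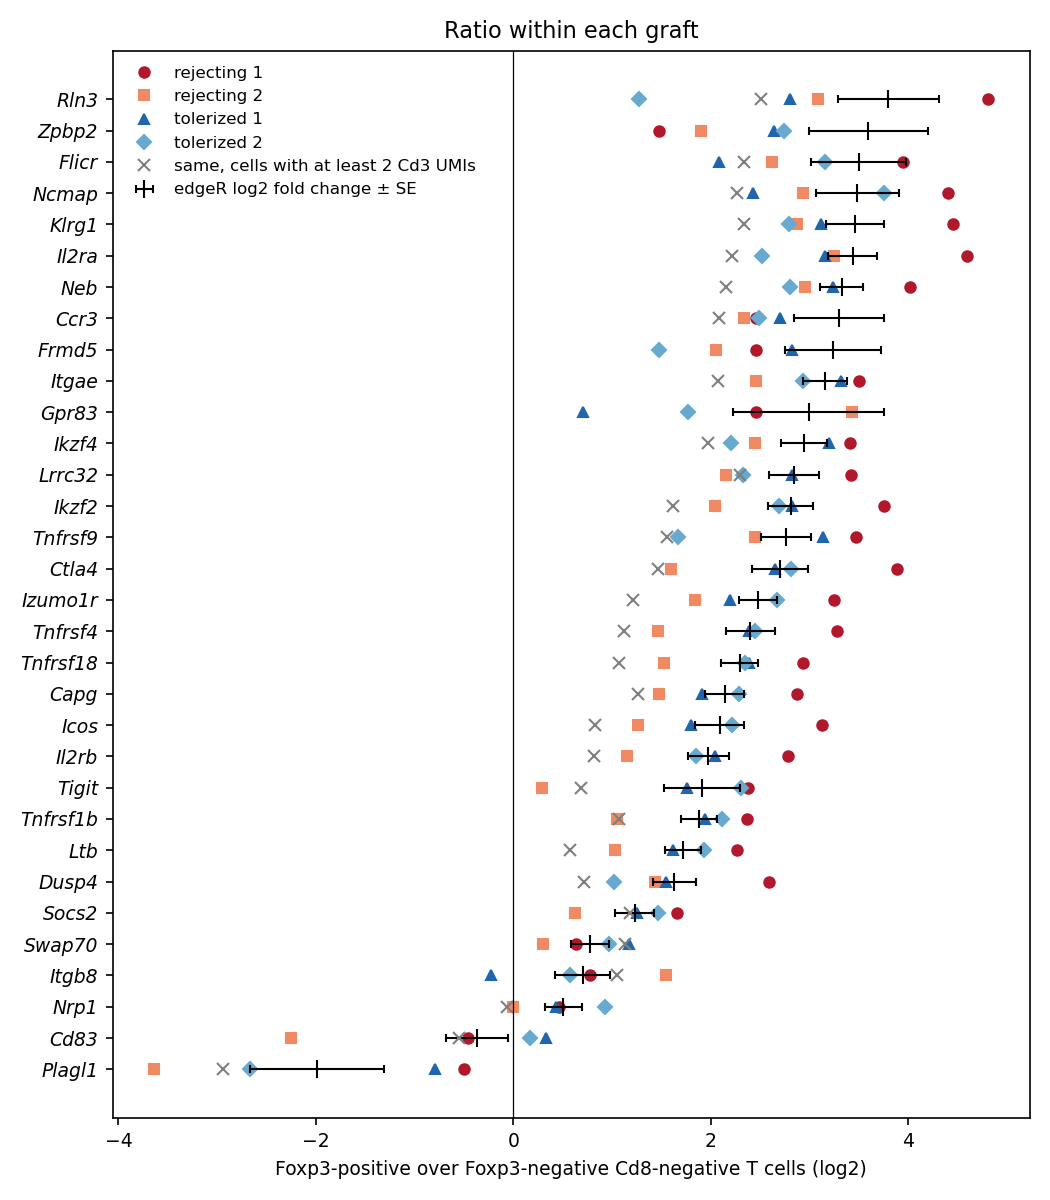
Points give the log2 ratio of Foxp3-positive over Foxp3-negative T cells within each graft for the 10 genes with the largest increase and the tested Treg core genes. Black ticks give the edgeR log2 fold change with its standard error, and grey crosses the value with at least 2 Cd3 UMIs per cell. Rejecting replicate 1 often lies farthest right and the crosses lie to the left of most ticks, as for Il2ra (2.21 against 3.44).

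The 10 genes most raised in members by the naming rule were Rln3, Zpbp2, Flicr, Ncmap, Klrg1, Il2ra, Neb, Ccr3, Frmd5, and Itgae, with log2 fold changes from 3.16 to 3.80. With at least 2 Cd3 UMIs, 8 of the 10 were tested and all 8 were called higher. Against Cd8-positive cells all 10 were called higher. Both comparisons reuse the member cells by which the genes were picked, so these calls are not separate support. Neb, which encodes the giant muscle protein nebulin, was at 126, 170, 103, and 85.3 CPM in members and at 6.81, 21, 10, and 11.3 CPM in Foxp3-negative cells (3.33, SE 0.22, edgeR adjusted p = 3.53e-06). Flicr, a noncoding RNA annotated on chromosome X at 7573600 to 7581027, overlaps Foxp3 (7573644 to 7595245) on the same strand, so its 7, 8, 18, and 12 UMIs in members cannot be surely separated from those of Foxp3. Rln3, which encodes relaxin 3, and Zpbp2 rested on few UMIs, with 26, 15, 17, and 4 for Rln3 and 1, 3, 11, and 4 for Zpbp2. Rln3 was at 81.6 and 30.4 CPM in rejecting grafts and at 12.8 and 7.11 CPM in tolerized grafts.

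The 10 genes with the largest decrease had no UMI in the 2571789 UMIs of the members, so their folds are lower bounds against a floor of 3 counts over all members. Ms4a1, which encodes CD20 of B cells, was at least 16.6-fold lower, at 24.2, 23.8, 12.7, and 16.5 CPM in Foxp3-negative cells. Mcpt8, a basophil protease, was at least 16.7-fold lower, Klrb1c, which encodes the NK receptor NK1.1, at least 7.69-fold, and Fcrla, a B cell protein, at least 7.17-fold. Stfa3 was at least 19.1-fold, Cyp7b1 and Lypd2 at least 17.1-fold, Gm2663 at least 11.3-fold, Klra1 at least 8.80-fold, and Slc4a11 at least 8.34-fold lower. Stfa3, Gm2663, and Klra1 belong to families of similar genes whose reads may be shared. Of the 10, 5 could be tested with at least 2 Cd3 UMIs and all 5 were called lower. The cells of that setting are among those by which the genes were picked, so its calls are not separate support. With at least 1 Cd4 UMI, 1 could be tested and was called lower. Against Cd8-positive cells all 10 were tested and only 1 was called lower.

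Genes of effector and tissue Tregs were mostly higher in the first comparison, which did not hold among cells with a Cd4 UMI. On this list, 18 of 21 tested genes were higher and 1 was lower (median 1.04), and 4 were higher and 2 lower with at least 2 Cd3 UMIs (median 0.31). With at least 1 Cd4 UMI in each cell, 2 of 20 were higher and 3 lower (median 0.07). Klrg1, an inhibitory receptor of terminally differentiated effector cells, was at 81.6, 54.8, 150, and 35.5 CPM in members and at 2.76, 6.62, 16.4, and 4.28 CPM in Foxp3-negative cells. It was higher by 3.46 (SE 0.29, edgeR adjusted p = 8.84e-06), and the members of tolerized replicate 1 held the most. Itgae, which encodes the integrin chain CD103 that binds E-cadherin of epithelium, was higher by 3.16 (SE 0.23), Prdm1, which encodes BLIMP-1, by 2.12 (SE 0.21), and Il1rl1, which encodes the interleukin 33 receptor ST2, by 2.57 (SE 0.35). These 4 were the ones that stayed called with at least 2 Cd3 UMIs, at 2.34, 2.08, 1.18, and 1.82. Bhlhe40 fell in both comparisons (-0.80 and -1.61).

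Of the suppressive effectors, 10 of 13 tested were higher and none was lower (median 1.74), and 5 remained higher with at least 2 Cd3 UMIs (median 0.78), namely Lrrc32, Ctla4, Fgl2, Areg, and Entpd1. Areg, which encodes the tissue-repair growth factor amphiregulin, was at 195, 237, 203, and 160 CPM in members and at 9.89, 100, 13, and 21.6 CPM in Foxp3-negative cells. Its log2 fold change was 2.93 (SE 0.37, edgeR adjusted p = 7.48e-05), and 1.78 with at least 2 Cd3 UMIs (adjusted p = 0.00752). Without thinning, an Areg UMI was found in 20.5%, 24.2%, 19.7%, and 20.4% of members, whose depths differed, and 20 of its 117 UMIs in rejecting replicate 2 and 63 of 268 in tolerized replicate 1 were in called doublets. Il10, the cytokine interleukin 10, was at 40.8, 134, 108, and 101 CPM in members and at 6.16, 60.4, 29.6, and 13.5 CPM in Foxp3-negative cells (1.98, SE 0.25). With at least 2 Cd3 UMIs it was 0.74 (adjusted p = 0.074) and not called.

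Interleukin 2 signaling genes gave 10 higher and 1 lower of 14 (median 1.14), and 6 and 1 with at least 2 Cd3 UMIs (median 0.38). Pim1, Cish, Socs2, and Stat5b, of which the first 3 are targets of STAT5, were called higher both times, with Pim1 at 1.75 and 1.21. The gene that fell was Bcl2, which encodes a protein that protects lymphocytes from apoptosis. It was at 25.1, 24.3, 26.5, and 24.9 CPM in members and at 96.5, 99.5, 80.7, and 102 CPM in Foxp3-negative cells. The levels did not overlap. Its log2 fold change was -1.92 (SE 0.19, edgeR adjusted p = 1.95e-05), and -2.73 with at least 2 Cd3 UMIs (adjusted p = 1.12e-05). Mcl1, another survival gene, did not pass (0.31, adjusted p = 0.135).

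Resting, helper, and cytotoxic genes were mostly lower or did not pass the test. On the list of central and resting genes, 1 of 13 was higher and 3 were lower (median -0.23), with Tcf7, which encodes the stem-like T cell factor TCF-1, at 6.28, 8.11, 8.31, and 23.1 CPM in members and 23.0, 52.3, 54.7, and 51.2 CPM in Foxp3-negative cells (-2.04, SE 0.32, edgeR adjusted p = 0.000318). Ccr7, which encodes a lymph node homing receptor, did not pass at -0.23. With at least 2 Cd3 UMIs, none of the 13 central and resting genes was higher and 2 were lower, Tcf7 and Bcl2 (median -0.50). Of 10 helper genes, 1 was higher (Tbx21, 0.77) and 5 were lower (median -1.11), among them Ifng at -1.28 (SE 0.30) and the follicular helper genes Bcl6 and Il21. With at least 2 Cd3 UMIs no helper gene was higher and 5 were lower. Il4, Il5, Il13, Il17a, Il22, and Csf2 had no UMI in members, and Il2 had 3.14, 0, 0, and 0 CPM.

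Most cytotoxic genes were lower in members. Of 14 tested, 9 were lower, and 2, Gzmb (1.85) and Ccl5 (1.01), were higher. The median was -1.74, and the share called lower with at least 2 Cd3 UMIs was 10 of 14 with none higher (median -2.61, or -2.25 with genes at 0 set to their bound). Klrk1, which encodes the receptor NKG2D, was at 3.14, 2.03, 6.05, and 0 CPM in members and at 31.0, 66.8, 33.7, and 49.0 CPM in Foxp3-negative cells (-3.64, SE 0.40, edgeR adjusted p = 3.09e-05). Xcl1 and Gzma fell by 4.46 and 4.40 on the log2 scale, and Eomes, a transcription factor of cytotoxic cells, had no UMI in members, at least 5.03-fold lower.

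Among homing genes, 10 of 15 were higher and 2 lower (median 1.28), and 4 and 2 with at least 2 Cd3 UMIs (median 0.31). Itgb7, the partner chain of Itgae, was at 417, 310, 379, and 291 CPM in members and at 97.9, 121, 81.1, and 73.0 CPM in Foxp3-negative cells (1.93, SE 0.15, edgeR adjusted p = 5.29e-06), and 0.97 with at least 2 Cd3 UMIs. Itgae and Ccr2 were also called higher in both comparisons. Cxcr6, a receptor of tissue-resident T cells, fell by 1.34 and 2.53 on the log2 scale, and Itgb1 by 0.77 and 1.53. The homing genes thus moved in both directions.

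The remaining lists depended on the Cd3 requirement. NF-kB and TNF receptor genes gave 13 of 16 higher and then 4, all TNF receptors (Tnfrsf4, Tnfrsf9, Tnfrsf18, and Tnfrsf1b). Inhibitory and T cell receptor response genes gave 11 higher and 1 lower of 17, and then 1 higher (Ctla4) and 1 lower (Pdcd1, which encodes PD-1, -1.44). With at least 1 Cd4 UMI, 1 inhibitory and response gene was higher and 4 were lower (median -0.43). In that setting 4 of 13 suppressive, 4 of 13 homing, 4 of 14 interleukin 2, 2 of 16 NF-kB and TNF receptor, 2 of 15 interferon-induced, 1 of 14 cytotoxic, and none of 16 cell cycle, 7 helper, and 12 central and resting genes were higher. Lower were 8 cytotoxic, 4 helper, 2 homing, 2 central and resting, and 1 interleukin 2 gene. Cell cycle genes gave 14 of 16 higher, and then 1 (Ccnb2, 1.31). Interferon-induced genes gave 2 higher and 4 lower of 15, and then 1 higher (Gbp7, 0.77). For other cell types, 5 of 6 B cell, 3 of 10 macrophage, 3 of 6 NK and innate-like, 1 of 4 dendritic cell, and 8 of 11 kidney genes were lower in members, and 2 of 5, 1 of 10, 2 of 3, 0 of 1, and 0 of 11 with at least 2 Cd3 UMIs.

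Compared with the 4682 Cd8-positive cells, Foxp3-positive T cells were higher in Treg core and TNF receptor family genes and lower in each cytotoxic gene. Of 11 kidney genes, 1 was higher (Emcn, 2.29) and 1 lower (Slc12a1, -1.11). The Emcn value rested on few cells of the tolerized grafts. In tolerized replicate 1, 114 of its 117 member UMIs were in called doublets, and in tolerized replicate 2, 59 of 60 were in 1 cell. Members of the rejecting grafts held 2 and 0 Emcn UMIs. By edgeR's quasi-likelihood test 573 genes (4.82%) were higher and 501 (4.22%) lower of 11886 tested, and the 1074 calls became 475 without tolerized replicate 1 and 677 without tolerized replicate 2. Of the 23 Treg core genes, 19 were higher and none was lower (median 1.85 against -0.04 over all genes). All 14 of 14 cytotoxic genes were lower (median -4.08, or -3.84 with genes at 0 set to their bound), and 13 of 16 NF-kB and TNF receptor genes were higher with none lower (median 1.11). No cell cycle gene of 16 was called (median 0.22).

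**Figure D4:**
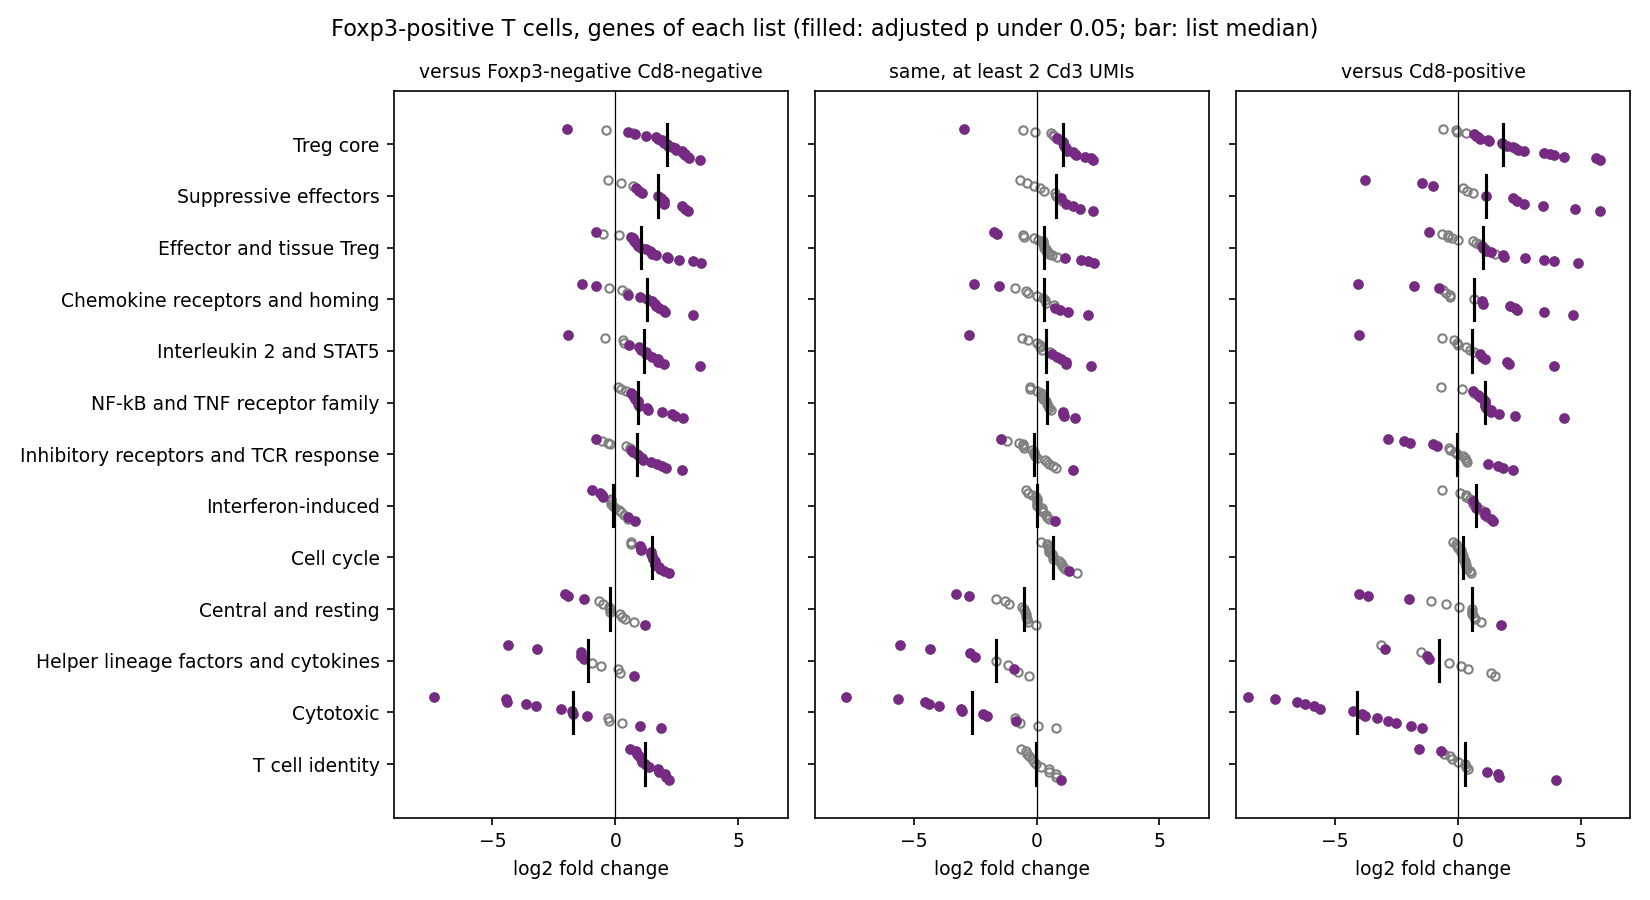
Each circle is 1 tested gene of the list named at left and gives its log2 fold change in Foxp3-positive T cells, against Foxp3-negative cells, against Foxp3-negative cells with at least 2 Cd3 UMIs per cell, and against Cd8-positive cells. Filled circles passed an edgeR adjusted p under 0.05, and bars are list medians, which for the Treg core list are 2.09, 1.09, and 1.85. Values of genes with no UMI in members, such as Eomes at the far left of the cytotoxic list, depend on the model.

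Of 13 suppressive effectors tested against Cd8-positive cells, 7 were higher and 3 lower in members (median 1.14). Of 21 effector and tissue Treg genes, 11 were higher and 1 lower (median 1.04). Lrrc32 was at 87.9, 64.9, 66.5, and 32.0 CPM in members and at 1.49, 1.03, 0.829, and 1.36 CPM in Cd8-positive cells, a log2 fold change of 5.78 (SE 0.32, edgeR adjusted p = 1.07e-07). Il10 was at 1.06, 4.82, 5.14, and 3.40 CPM in Cd8-positive cells and was higher in members by 4.78 (SE 0.31, adjusted p = 4.02e-07). Cd4, as a check of the populations, was higher by 3.99 (SE 0.27). Tnfrsf4 was higher by 4.34 (SE 0.27), Areg by 3.49 (SE 0.38), and Maf, a transcription factor that promotes Il10, by 2.76 (SE 0.21).

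Chemokine receptor genes differed from those of Cd8-positive cells in both directions. Of 15 homing genes tested, 7 were higher and 3 lower in members (median 0.66). Ccr8, a receptor of tissue Tregs, was at 22.0, 42.6, 20.4, and 30.2 CPM in members and at 3.61, 3.27, 1.82, and 1.36 CPM in Cd8-positive cells (3.52, SE 0.33, edgeR adjusted p = 1.03e-05). Ccr4 was higher by 4.71 (SE 0.44) and Ccr2 by 2.33 (SE 0.19). Cxcr6 was at 47.1, 40.6, 28.0, and 42.6 CPM in members and at 455, 586, 698, and 719 CPM in Cd8-positive cells (-4.05, SE 0.23, adjusted p = 1.07e-07). Its levels did not overlap between the populations.

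Of 14 interleukin 2 genes, 6 were higher and 1 lower in members than in Cd8-positive cells (median 0.58). Il2rb, the interleukin 2 receptor beta chain, was level with Cd8-positive cells (-0.00, SE 0.20, edgeR adjusted p = 0.999), although Il2ra was higher by 3.94 (SE 0.26). Bcl2 was at 391, 390, 517, and 351 CPM in Cd8-positive cells and lower in members by 4.03 on the log2 scale (log2 fold change -4.03, SE 0.19, edgeR adjusted p = 8.19e-08). Inhibitory and T cell receptor response genes gave 4 higher and 5 lower of 17 (median -0.01). Pdcd1 was at 56.5, 103, 63.5, and 60.4 CPM in members and at 426, 752, 517, and 342 CPM in Cd8-positive cells (-2.85, SE 0.15). Gzmb, which was higher than in Foxp3-negative cells, was lower than in Cd8-positive cells (-1.43, SE 0.30, adjusted p = 0.00677). Interferon-induced genes were higher in 7 of 15 and lower in none, among them Ly6a (1.45) and Gbp7 (1.34).

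Within Foxp3-positive T cells, tolerized and rejecting grafts were then compared to ask whether their state differed with tolerance. The groups overlapped for the marker genes Ikzf2, Tnfrsf4, and Ctla4. Ikzf2 was at 1160.4 and 1299 CPM in rejecting and 1402 and 1242 CPM in tolerized grafts (log2 fold change 0.10, SE 0.26, edgeR adjusted p = 0.997). Tnfrsf4 was at 1101 and 1086 CPM in rejecting and 1270.3 and 1089 CPM in tolerized grafts (0.11, SE 0.26), and Ctla4 at 682 and 982 CPM in rejecting and 682 and 795 CPM in tolerized grafts (-0.18, SE 0.28). Of 6139 genes tested, 1 was called (0.0163%), and 308 had an unadjusted p under 0.05, while 44 were called without tolerized replicate 1 and 0 without called doublets. In every fit between the groups with 1 kidney left out, a group held 1 kidney, so the other group alone gave the spread. A p that misses the threshold does not show that levels were equal.

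The kidneys were processed in 2 experiments, and the sources used here do not say whether the replicate number marks the experiment. With the replicate number as a block, 53 genes (0.863%) were called, 31 higher and 22 lower in tolerized grafts, among them all 10 genes named below as nearest to the threshold or past it, of which only Gdf15 was called without the block. Those 10 genes were picked from the same counts. The blocked fit sets both the replicate number and the group on the sums of 4 grafts, which leaves little to measure the spread. None of the 20 tested Treg core genes was called with the block, whereas S100a4 (adjusted p = 0.0389), 5 of the 10 kidney genes (4 higher and 1 lower), and 1 of 2 macrophage genes (lower) were, and the remaining lists had no call.

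Without the block, no gene of the Treg core list was called among 20 tested (median -0.10 against -0.01 over all genes). The groups did not overlap for 8 of the 20, and for 2110 of all 6139 genes (34.4%). Il2ra was at 210 and 247 CPM in rejecting and 181 and 99.9 CPM in tolerized grafts (-0.67, SE 0.30, unadjusted p = 0.0497, edgeR adjusted p = 0.955). Dusp4 was at 140 and 170 CPM in rejecting and 97.7 and 68.6 CPM in tolerized grafts (-0.88, SE 0.27, adjusted p = 0.673). Klrg1 was at 90.9 and 60.6 CPM in rejecting and 164 and 39.2 CPM in tolerized grafts, the spread within the tolerized group being wider than the difference of the groups (0.54, SE 0.55). Il10 was at 45.4 and 148 CPM in rejecting and 118 and 112 CPM in tolerized grafts (0.18, SE 0.41). S100a4, a calcium-binding protein of effector cells, was at 423 and 559 CPM in rejecting and 1008 and 1258 CPM in tolerized grafts without overlap (1.20, SE 0.27, adjusted p = 0.419 without the block and 0.0389 with it).

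The other lists had no call without the block either. The 16 cell cycle genes all had negative signs (median -0.71, 2 with an unadjusted p under 0.05). With the block their median was -0.88, and 11 had an edgeR unadjusted p under 0.05 with none called. Mki67 was at 147 and 112 CPM in rejecting and 102 and 35.3 CPM in tolerized grafts (-0.81, SE 0.42, edgeR adjusted p = 0.974 without the block). Leaving out tolerized replicate 1 called 4 of the 16 lower (median -1.53), and leaving out rejecting replicate 1 brought the median to -0.18 with none called. The 15 interferon-induced genes had a median of -0.11, and the 15 NF-kB and TNF receptor genes one of -0.12. The 10 kidney genes had a median of 1.24, with 9 at an unadjusted p under 0.05, and Kap was at 1363 and 2469.6 CPM in rejecting and 4044 and 3894 CPM in tolerized grafts.

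The 1 gene called was Gdf15, which encodes a stress-induced cytokine of the TGF-beta family, on chromosome 8 at 70629393 to 70632456, minus strand. It was at 115 and 80.7 CPM in rejecting and 4.14 and 3.92 CPM in tolerized grafts (log2 fold change -4.50, SE 0.45, edgeR adjusted p = 0.017). Its UMIs sat in few cells. In rejecting replicate 1, 33 UMIs lay in 4 of 78 members with 16 in 1 cell, and in rejecting replicate 2, 36 UMIs lay in 4 of 120 members with 30 in 1 cell. In tolerized grafts 5 and 2 cells held 1 UMI each. The adjusted p was 0.0755 without rejecting replicate 1 and 0.0621 without called doublets, and it ranged up to 0.188 over the alternatives.

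The next genes by p, which did not pass the threshold without the block and passed it with the block, included endothelial ones. Emcn, which encodes the endothelial sialomucin endomucin, was at 6.99 and 0 CPM in rejecting and 96.8 and 118 CPM in tolerized grafts (5.16, SE 0.64, edgeR adjusted p = 0.0524, with the block 6.84e-08, and up to 0.235 over the alternatives). Of its 117 UMIs in tolerized replicate 1, 114 were in called doublets, and in tolerized replicate 2, 59 of 60 were in 1 cell. At least 2 of the endothelial genes Emcn, Kdr, Pecam1, and Egfl7 were found in 0, 0, 4, and 2 members, and the 4 were all called doublets. Ehd3 (4.86), Plpp1 (4.22), and Igfbp5 (4.6) were likewise held mostly by 1 cell in tolerized replicate 2, with 42 of 47, 33 of 34, and 67 of 82 UMIs.

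Rps28, Hsph1, and H2-Q4 were spread over more members. Rps28, a ribosomal protein gene, was at 266 and 467 CPM in rejecting and 1267 and 1179 CPM in tolerized grafts (1.73, SE 0.31, edgeR adjusted p = 0.293, with the block 0.000736, and up to 0.961 over the alternatives), with a UMI in 53.8%, 60.8%, 93.9%, and 93.5% of members. Hsph1, which encodes a heat shock protein, was at 157 and 130 CPM in rejecting and 48.8 and 58.8 CPM in tolerized grafts (-1.43, SE 0.27, adjusted p = 0.293, with the block 0.00278, and up to 0.961 over the alternatives). H2-Q4, an MHC class I gene with near-identical relatives and therefore uncertain, was at 350 and 265 CPM in rejecting and 121 and 155 CPM in tolerized grafts (-1.16, SE 0.25). Krt8 (-1.90) and Hist1h2ap (-4.48) were also lower in sign but rested on few cells. Krt8 had a UMI in 8, 6, 16, and 7 members, with 15 of its 25 UMIs of rejecting replicate 2 in 1 cell. Hist1h2ap had one in 21, 5, 13, and 5 members, with 293 of 736 UMIs of rejecting replicate 1 and 45 of 71 of rejecting replicate 2 in 1 cell.

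**Figure D5:**
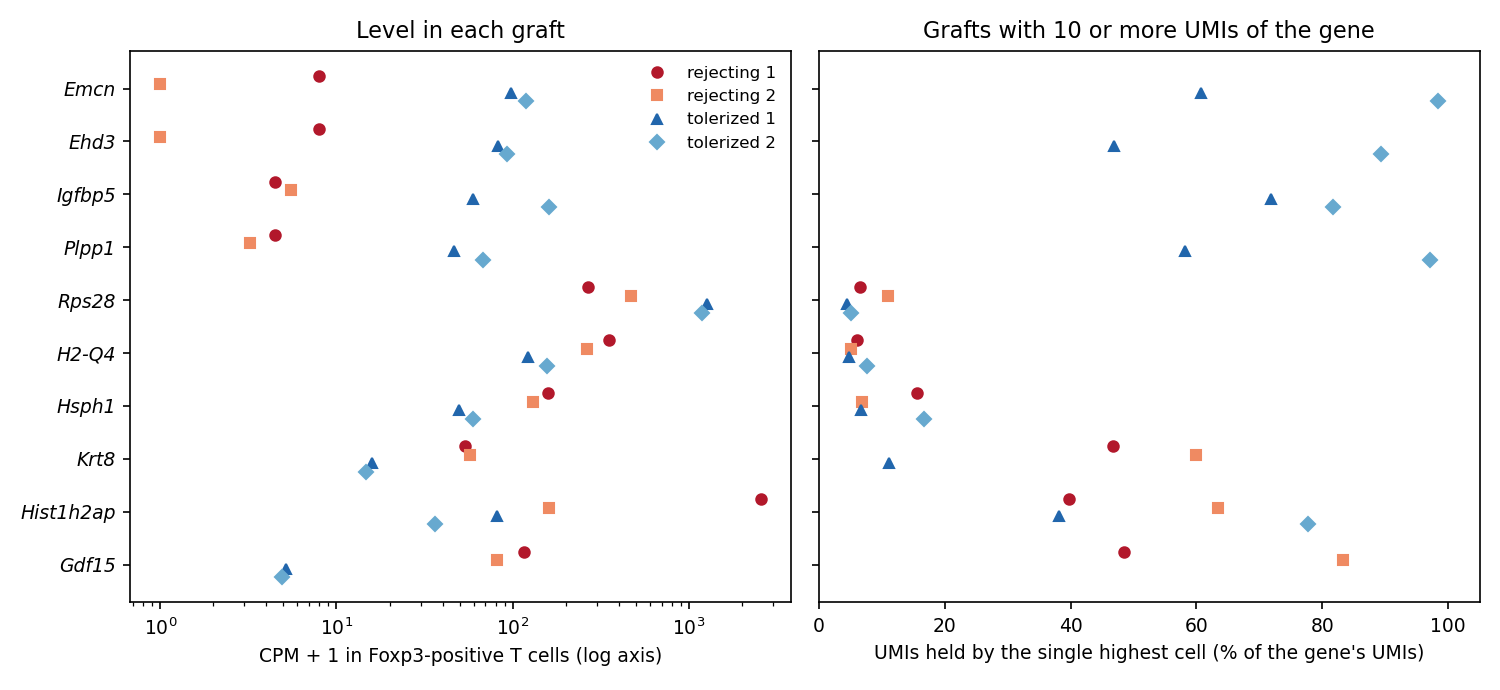
Left, each point gives the level (CPM + 1, log axis) of a gene in the Foxp3-positive T cells of 1 graft, for Gdf15 and the 9 genes next by p whose groups do not overlap. Right, the percentage of the gene's UMIs held by the single highest cell, for grafts with at least 10 UMIs. For Emcn, Ehd3, Plpp1, and Igfbp5 most UMIs of tolerized replicate 2 were in 1 cell, whereas Rps28 and H2-Q4 were spread.

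In Foxp3-negative cells of the same kidneys, 0 of 12370 genes were called between tolerized and rejecting grafts (897 with an unadjusted p under 0.05). Gdf15 had a log2 fold change of -1.09 there (edgeR adjusted p = 0.654). The test of the difference between both populations called 0 of 11555 genes (440 with an unadjusted p under 0.05), and 0 by DESeq2 (137 with an unadjusted p under 0.05). For Gdf15 this test gave an adjusted p of 0.196. No change between the groups was therefore shown to be particular to Foxp3-positive T cells.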

How the data were processed

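Single cells of 2 naive kidneys, 2 rejecting grafts, and 2 tolerized grafts were measured with 1 library per kidney. The authors deposited 1 matrix per kidney of raw UMI counts per gene and barcode, not normalized, made with Cell Ranger (version 3.0.1 in the headers of the 4 graft matrices) on mm10. Graft matrices held 31053 genes. Each library is labelled as a kidney of its own. Between groups, p-values without a block measure the spread between these kidneys. Between populations, where the kidney is a block, they measure how far population differences varied among kidneys.

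Cells were kept and members chosen as described in the report. Counts were summed per kidney and population, passed through filterByExpr and TMM scaling, and compared in R 4.3.3 by the quasi-likelihood F-test of edgeR 4.0.16 (with limma 3.58.1; threshold, adjusted p of 0.05), with the kidney as a block between populations and without a block between groups. The procedure was tested on simulated data, where small changes between the groups were not recovered. The 7 genes of the rule were left out. Shares were compared by two-sided exact permutation tests over kidneys, with 95% Clopper-Pearson intervals. Doublets were the highest Scrublet scores (scanpy 1.11.5) up to 0.8% per 1000 barcodes, and were kept unless stated. Python 3.11.15, numpy 2.4.6, pandas 2.3.3, scipy 1.17.1, and matplotlib 3.10.9 were used.

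Named genes were the 10 with the largest change in each direction past the threshold, with the same direction in 4 kidneys and at least 20 UMIs; between groups, those past the threshold or else the 5 with the smallest p in each direction without overlap; and the Treg core list. From other lists the genes with the smallest p or of known role were taken, some after their values were seen. The members and lists were chosen with earlier results of these data known.

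Alternatives were DESeq2 1.42.0, its size factors in edgeR, no filter, at least 1000 UMIs, at most 20% mitochondrial UMIs, at least 2 Foxp3 UMIs, called doublets left out, at least 1 Cd4 UMI, other blocks and denominators, either group alone, and each kidney left out. Allowing C1qb UMIs and requiring 2 Cd3 UMIs were added after the data were seen. Genes are placed in GRCm38 coordinates. Values of some listed genes are not reported here.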

Additional observations from a re-analysis of the deposited data

Results flagged for a closer look

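Some cells lay outside the gene comparisons because they held both Foxp3 and CD8 transcripts. Cd3-positive cells with a Foxp3 UMI and a Cd8a or Cd8b1 UMI numbered 41 in rejecting replicate 1, 24 in rejecting replicate 2, 52 in tolerized replicate 1, and 18 in tolerized replicate 2, and 0 in both naive kidneys, the control samples. They are listed because they were neither members nor in the populations compared with members, and the control samples had none. They did count among the Cd3-positive cells of the shares, and those without C1qb UMIs in the Foxp3 level. The naive kidneys held only 42 and 61 Cd3-positive cells, too few to show a difference from the grafts.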

How the results depend on the processing

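The group means of the number and share of Foxp3-positive T cells and of the Foxp3 level were higher in the tolerized group under each alternative run. In the main setting single kidneys of the groups overlapped for the number and for the level. A difference in number is therefore not shown, and no conclusion is drawn from the level. With 1 choice changed at a time, the difference of the mean shares ranged from 0.871 percentage points of all kept cells to 14.7 points of Cd3-positive cells without Cd8 or C1qb UMIs. With 2 kidneys per group, none of these could pass the threshold.

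The count of genes called between tolerized and rejecting members, 1 by edgeR, was 8 by DESeq2, 97 without a filter, 7 with at most 20% mitochondrial UMIs, 2 with at least 2 Cd3 UMIs, and 0 with at least 2 Foxp3 UMIs, without called doublets, and with C1qb UMIs allowed (240, 202, and 351 with an unadjusted p under 0.05). It ranged from 4 to 44 when 1 kidney was left out, the 44 without tolerized replicate 1. In those fits a group held 1 kidney, and the other group alone gave the spread. With the replicate number as a block the count was 53, in a fit with little left to measure the spread. Same-numbered kidneys deviated together across 6143 genes (r = 0.20), but with 2 pairs, and no source that ties the numbers to the 2 experiments of the study, a pairing is not shown.

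The 4701 calls against Foxp3-negative cells became 194 with at least 1 Cd4 UMI, 302 with at least 2 Cd3 UMIs, 692 in rejecting grafts alone, and 2740 to 4794 with 1 kidney left out, fewest without tolerized replicate 1. The 1074 calls against Cd8-positive cells became 623 without the kidney block, 182 in rejecting grafts alone, and 475 to 1045 with 1 kidney left out, fewest without tolerized replicate 1 (677 without tolerized replicate 2). The 0 calls of the difference between populations became 69 without a filter and 10 to 118 with 1 kidney left out. The cause of these moves was not tested, except that rejecting or Cd4-holding cells alone leave fewer samples or genes.

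Among the named genes, signs turned for Tigit (-0.050) and Nrp1 (-0.064) with at least 1 Cd4 UMI and for Nrp1 (-0.064) with at least 2 Cd3 UMIs. They also turned for Cd83, from -0.78 to 0.14 with 1 kidney left out (0.14 without rejecting replicate 2), and in tolerized grafts alone (0.34). None of these passed the threshold. Signs turned in other lists too. With at least 2 Cd3 UMIs, positive signs against Foxp3-negative cells went from 5 to 0 of 13 central and resting genes. They went from 13 to 6 of 13 T cell identity genes and from 13 to 7 of 17 inhibitory and response genes. Helper genes went from 3 of 10 to 0 of 9.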
